A study of Mus musculus with 5 samples.

Results

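The T cell receptor (TCR) complex and coreceptor genes examined here are Cd3d, Cd3e, Cd3g and Cd247, which encode the CD3 signalling chains, the coreceptor genes Cd4, Cd8a and Cd8b1, the kinase genes Lck and Zap70, and Cd5. All 10 genes were chosen by name, and each locus was taken as every H3K27ac peak that overlapped the annotated gene extended by 10 kb on each side. A peak in reach of more than 1 of the neighbouring Cd3 genes was given to the nearer transcription start site (TSS). This gave 97 of the 124158 peaks, and 78 of them held the minimum of 10 counts in at least 2 libraries and were tested, among 74550 peaks tested in all. The other 19 member peaks were too low to test. Of the 97, 27 lay nearer to the TSS of another gene (P3h3 and Gpr162 beside Cd4, Ube4a beside Cd3g, Hdac1 and Fam167b beside Lck, Vps37c beside Cd5, Creg1 and Pou2f1 beside Cd247, Smyd1 beside Cd8b1).

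H3K27ac, an acetylated lysine on histone H3, is found at promoters and enhancers in use. It was read by CUT&Tag, in which an antibody against the mark guides a transposase that cuts and tags the DNA beside it, in regulatory T (Treg) cells sorted as CD3+CD4+Foxp3-YFP+ from the large intestine of C57BL/6 mice aged 2 weeks. All mice carried Foxp3Cre-YFP, a Cre recombinase expressed from the locus of the Treg factor Foxp3. Ctrl mice had 1 floxed and 1 normal allele of Setd2, a histone methyltransferase gene, and KO mice had both alleles floxed. Each group had 2 libraries, each made from cells pooled over several mice of both sexes, so the error is that between pools. The sample titles call the Ctrl libraries WT, but by genotype they carry Cre and 1 floxed allele. An IgG library listed with the series was not analysed here. H3K27ac does not read the deletion of the floxed exons, so the genotype labels could not be checked in these values.

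The TCR binds peptide on major histocompatibility complex (MHC) molecules but has no signalling domain of its own. The CD3 chains carry its signalling motifs, which are phosphorylated by Lck and then bind ZAP-70. CD4 and CD8, the coreceptors for MHC class II and class I, bring Lck to the receptor, and CD5 is a surface receptor that dampens TCR signals. Mature T cells keep one coreceptor and silence the other, and Treg cells belong to the CD4 lineage.

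CPM values are counts scaled to the size of each library. The libraries held 2395002 and 3630447 counts in peaks in Ctrl and 3007444 and 4712473 in KO, so the replicate numbered 2 was the deeper in both groups. The 5 Treg marker loci (Foxp3, Il2ra, Ikzf2, Ctla4 and Tnfrsf18) all had a promoter peak and 6.08 to 32.6 CPM per kb of locus. Among markers of other cells, the loci without any peak were Crtam, Klrk1 and Ncr1 of 7 for CD8, cytotoxic and natural killer cells, Ms4a1 of 6 for B cells, Lyz2 of 5 for myeloid cells, and Krt18 and Cdx1 of 7 for epithelium. Other markers of these lists had dense loci. CPM per kb was 10.6 at Cd79a of the B cell list and 3.95 at Cd14 of the myeloid list. In the cytotoxic list it was 3.88 at Nkg7 and 3.32 at Klrb1c. A locus counts every peak that reaches its 10 kb flanks, so peaks of neighbouring genes can enter these values. The summed CPM per kb of the B cell list was 9.74 and 12.1 in Ctrl and 9.48 and 15.5 in KO. Cd79a made up most of this sum. The sum of the myeloid list was 6.33 and 5.63 in Ctrl and 5.35 and 5.70 in KO, and that of the epithelial list was 1.20 and 1.12 in Ctrl and 1.42 and 1.01 in KO. In windows within 3 kb of a TSS, the B cell list summed to 4.01 and 6.36 CPM per kb in Ctrl and 5.475 and 5.92 in KO. The myeloid list summed there to 6.555 and 2.725 in Ctrl and 4.53 and 3.71 in KO, and the epithelial list to 2.192 and 3.425 in Ctrl and 2.792 and 2.405 in KO. The part of these other cells in the results was not tested.

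Of the 10 member loci, 8 were densely acetylated and the remaining pair, Cd8a and Cd8b1, was not. Cd5 had the highest density, 14.4 ± 4.17 CPM per kb of locus (SD, n = 4), above 99.8% of the 21938 protein-coding genes. Lck followed with 9.92 ± 1.71, Cd247 with 7.94 ± 0.543, Cd3d with 7.75 ± 1.95, Zap70 with 7.16 ± 1.56, Cd3g with 6.44 ± 1.81, Cd3e with 4.29 ± 0.486 and Cd4 with 3.92 ± 0.661 CPM per kb. Cd4, the lowest of these, still stood above 91.3% of genes. Cd8b1 had 0.427 ± 0.136 and Cd8a 0.162 ± 0.118 CPM per kb, above 49.0% and 39.5% of genes, while the median gene had 0.466. In this order only the step from Cd4 to Cd8b1 separated the range of the 4 libraries of one locus from that of the next. The ranges of every other pair of neighbours overlapped. Within libraries, Cd5 also stood above Lck, Lck above Cd247, Cd3g above Cd3e and Cd8b1 above Cd8a in 4 of 4. The other steps held in 2 or 3 of 4 libraries. In sorted pools, signal per cell and the share of cells that carry it cannot be told apart.

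**Figure D1:**
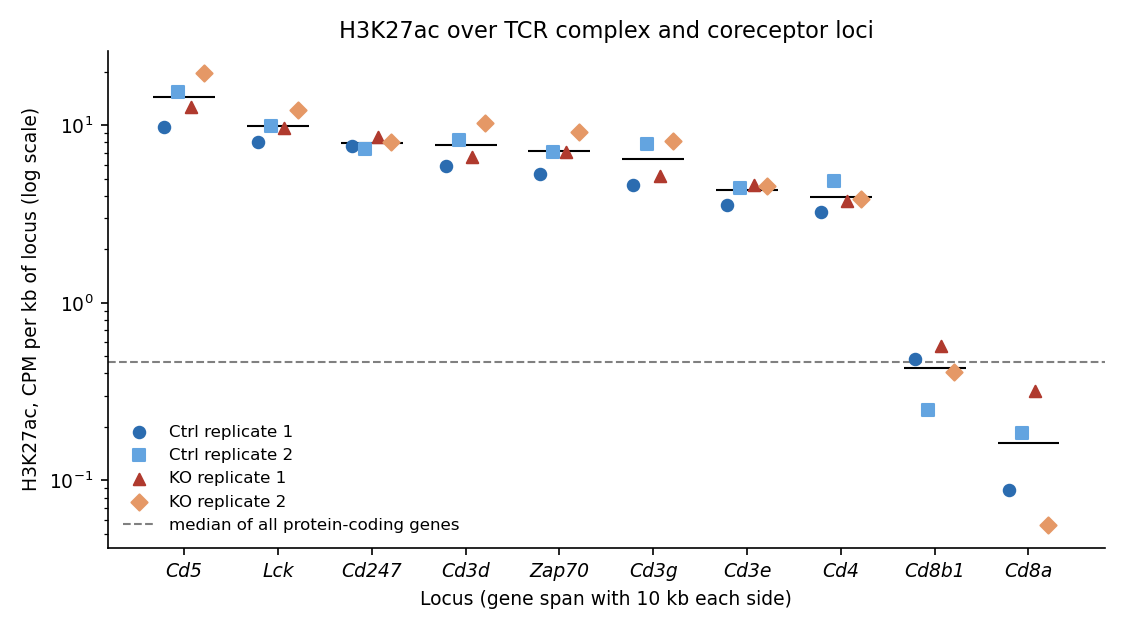
H3K27ac density of the 10 loci, in CPM per kb of locus on a log axis, with 1 symbol for each library, a bar at the mean and a dashed line at the median of all protein-coding genes (0.466). The libraries of the first 8 loci lie between 3.26 (Cd4) and 19.6 (Cd5) CPM per kb, and those of Cd8b1 and Cd8a between 0.0558 and 0.569.

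Cd3g and Cd3d, which encode the CD3 gamma and delta chains, are transcribed away from each other on chromosome 9 from starts 1355 bases apart. A single peak of 6270 bp, chr9:44977095-44983364 (mm10), covered both starts and was counted for Cd3g, whose TSS was nearer to its centre. The 250 bases before each start, both inside this peak, are shown because the pair shares it (RefSeq, GRCm38.p6, chr9:44980432-44980681 on the minus strand for Cd3g and chr9:44981536-44981785 on the plus strand for Cd3d, 5′ to 3′). Capitals mark every match, on either strand, to 9 short motifs, which are the RUNX motif TGTGGT, the ETS motif AGGAAG, a further ETS motif CGGAAG, the E-box CAGCTG, a further E-box CAGGTG, the SP and KLF motif GGGCGG, the GATA motif AGATAA, the TATA motif TATAAA and the cyclic AMP response motif TGACGT.
Cd3g: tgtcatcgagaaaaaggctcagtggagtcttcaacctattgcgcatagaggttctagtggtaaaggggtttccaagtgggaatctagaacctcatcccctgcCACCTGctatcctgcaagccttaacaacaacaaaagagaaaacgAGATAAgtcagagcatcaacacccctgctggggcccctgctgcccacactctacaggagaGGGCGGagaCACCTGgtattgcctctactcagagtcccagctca
Cd3d: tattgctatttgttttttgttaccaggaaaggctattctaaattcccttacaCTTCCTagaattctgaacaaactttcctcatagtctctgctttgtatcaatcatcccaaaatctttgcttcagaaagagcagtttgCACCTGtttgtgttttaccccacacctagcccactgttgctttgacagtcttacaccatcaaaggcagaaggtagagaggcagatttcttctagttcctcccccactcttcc
Both windows held the E-box CAGGTG, here as its reverse complement, which 17.2% of the 32851 RefSeq promoter windows of this length held. Cd3g also held GGGCGG (32.7% of windows) and AGATAA (9.99%), and Cd3d held AGGAAG (29.5%). No matches overlapped, and a match is a description of the letters, not of bound factor.

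The shared peak had 74.6 and 130 CPM in Ctrl and 85.7 and 141 CPM in KO. The deeper library was the higher in each group, and the groups overlapped. Over the whole Cd3g locus the values were 98.6 and 168 CPM in Ctrl and 112 and 176 in KO, a log2 fold change of 0.11 ± 0.32 (SE). The main peak of Cd3d, 4475 bp at chr9:44983734-44988208, began 1948 bp downstream of the TSS and held 96.05% of that locus' counts, since the start itself lay in the peak counted for Cd3g. Cd3d had 85.5 and 121 CPM in Ctrl and 96.5 and 149.5 CPM in KO, with the same overlap and the same order of libraries (log2 fold change 0.25 ± 0.29).

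Cd3e, which encodes the epsilon chain, had a promoter peak of 3446 bp, chr9:45007350-45010795, that covered its TSS and had 48.9 and 68.2 CPM in Ctrl against 73.8 and 77.2 in KO. Both KO libraries stood above both Ctrl libraries. The same held for the locus, with 85.5 and 105.6 CPM in Ctrl and 110 and 109 in KO, a difference of 0.20 ± 0.24 on the log2 scale (unadjusted p = 0.435). Summed over Cd3d, Cd3e and Cd3g, H3K27ac was 270 and 395 CPM in Ctrl and 319 and 435 CPM in KO, and the groups overlapped.

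Cd247 encodes the zeta chain, which carries most of the signalling motifs of the complex. Its locus had the most peaks of all members, 29 over 108.6 kb, and they covered 56.1% of it. Promoter peaks held only 13.4 ± 1.15% (SD, n = 4) of its counts, against 62.4 to 79.2% at the other loci with a promoter peak over the TSS. This range leaves out Cd3d, whose main peak began 1948 bp downstream of its TSS. The highest peak of Cd247 was intronic, 11528 bp long at chr1:165842601-165854128 and starting 53920 bp downstream of the TSS. It had 225 and 218 CPM in Ctrl and 229 and 215 in KO. These 4 values were the closest of any main peak, and the log2 fold change was 0.00 ± 0.25. The promoter peak, chr1:165787382-165792578, had 92.3 and 110 CPM in Ctrl and 124 and 119 in KO. Here both KO libraries were above both Ctrl libraries, as they were over the whole locus (830 and 803 CPM for Ctrl, 937 and 878 CPM for KO, log2 fold change 0.15 ± 0.17, unadjusted p = 0.404).

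**Figure D2:**
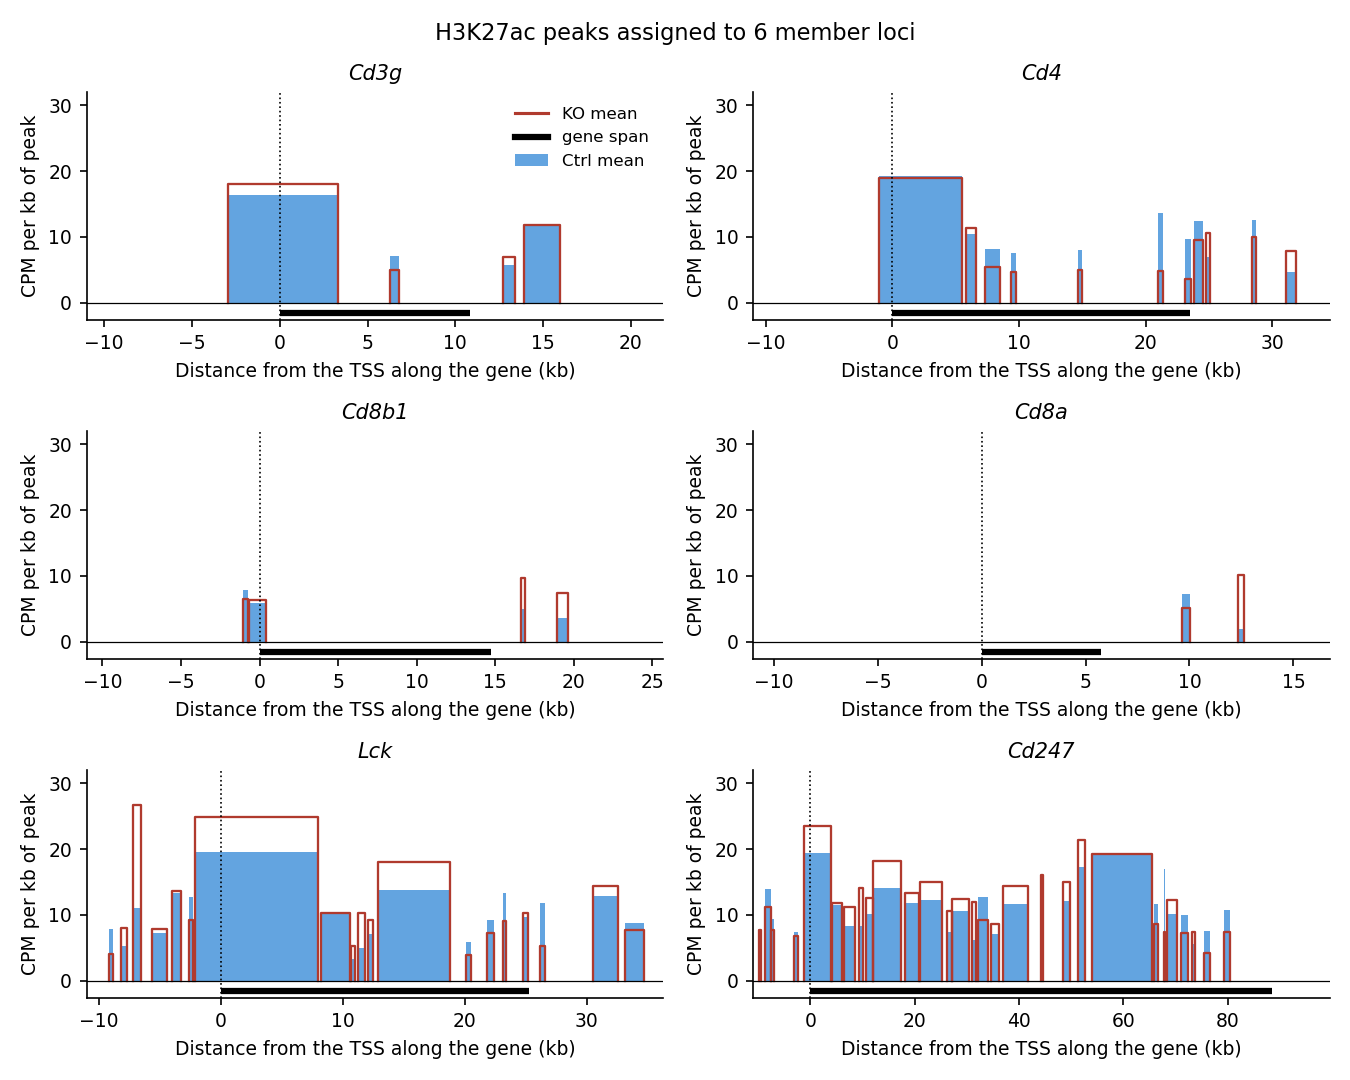
Peaks of 6 member loci by distance from the TSS in kb along the gene, with the height of each box in CPM per kb of peak (filled, mean of 2 Ctrl libraries; red outline, mean of 2 KO libraries) and the gene span as a black bar. Cd247 is covered by peaks along most of its length, Lck has a tall peak over each of its promoters, Cd4 has a broad peak at its start, and Cd8a has no peak at its start.

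Cd4 was acetylated mainly at its start. The promoter peak, 6542 bp at chr6:124882693-124889234, reached 5528 bp into the gene and held 73.1 ± 6.23% of the counts of the locus. It had 99.5 and 152 CPM in Ctrl and 112 and 137 CPM in KO. The Ctrl libraries enclosed the KO libraries, and the log2 fold change was -0.02 ± 0.27. Over the locus, Cd4 had 142 and 211 CPM in Ctrl and 164 and 166.5 in KO, and it was the only member with a log2 fold change below 0 (-0.10 ± 0.25, unadjusted p = 0.711). Of its 11 peaks, 7 lay nearer to the TSS of Gpr162 or P3h3, genes beyond its downstream end.

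Cd8b1 and Cd8a, which encode the beta and alpha chains of CD8, lie side by side on chromosome 6. Cd8a had no peak within 3 kb of its TSS, whereas 57.6% of protein-coding genes had one. Its 250 bases before the start (RefSeq, GRCm38.p6, chr6:71373177-71373426, plus strand) are shown as the member promoter without a peak.
Cd8a: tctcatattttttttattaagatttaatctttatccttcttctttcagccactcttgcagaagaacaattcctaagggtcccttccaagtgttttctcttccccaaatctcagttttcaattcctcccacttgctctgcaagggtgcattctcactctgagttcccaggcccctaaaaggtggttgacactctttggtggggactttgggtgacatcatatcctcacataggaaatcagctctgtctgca
None of the 9 motifs was in this window, which says only that these letters are not there. The nearest peak of Cd8a, 410 bp at chr6:71383050-71383459, lay 9623 bp downstream of the TSS and held 4 and 14 counts in Ctrl libraries and 8 and 5 in KO libraries. With one further small peak it made up the locus, which had 2.26 and 4.76 CPM in Ctrl and 8.20 and 1.44 CPM in KO. The highest and the lowest of these were both KO libraries, and none of the Cd8a peaks was high enough to test.

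Cd8b1 had a promoter peak of 1091 bp, chr6:71322109-71323199, over its TSS. It held 19 and 14 counts in Ctrl libraries and 15 and 35 in KO libraries, which is 8.60 and 4.17 CPM against 5.59 and 8.39. The groups overlapped (log2 fold change 0.18 ± 0.62). Over the Cd8b1 locus, H3K27ac was 16.7 and 8.63 CPM in Ctrl and 19.7 and 14.1 CPM in KO. Between the genes lay 3 small peaks, of 1.12 to 3.82 CPM on average.

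To contrast the coreceptors, Cd4 was set against Cd8a and Cd8b1 together in CPM per kb of locus. In Ctrl, Cd4 had 3.26 and 4.84 and the Cd8 loci 0.314 and 0.222 CPM per kb. In KO, Cd4 had 3.77 and 3.83 and the Cd8 loci 0.462 and 0.258. Cd4 density was therefore 10.4, 21.9, 8.15 and 14.9 times that of the Cd8 loci in Ctrl 1, Ctrl 2, KO 1 and KO 2. It was higher in 4 of 4 libraries, with a mean log2 difference of 3.69 ± 0.62 (SD, n = 4; exact sign-flip test, two-sided p = 0.125, the smallest that 4 libraries allow). In the windows within 3 kb of a TSS the ratio was 17.8, 49.2, 26.4 and 29.6. The log2 difference was 3.38 and 4.45 in Ctrl and 3.03 and 3.89 in KO, and the genotypes did not separate (exact permutation test, two-sided p = 0.667, where 2 against 2 cannot go below 0.333). Divided by the length of the peaks in place of the locus, the mean log2 difference was 1.23, and peaks covered 27.8% of the Cd4 locus against 6.89% of Cd8b1 and 2.64% of Cd8a. Cells had been sorted for surface CD4. The summed CPM per kb of the CD8, cytotoxic and natural killer list was 7.95 and 6.75 in Ctrl and 8.90 and 7.62 in KO. In windows within 3 kb of a TSS the sum was 6.05 and 5.91 in Ctrl and 8.20 and 7.59 in KO. There both KO libraries were above both Ctrl libraries. The part of this list in the Cd8 values was not tested.

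Lck, the kinase that starts TCR signalling, has a distal and a proximal promoter, known for use in mature T cells and in thymocytes respectively. Both had a broad peak, so the bases before both starts are shown (RefSeq, GRCm38.p6, minus strand, chr4:129573642-129573891 distal and chr4:129558373-129558622 proximal, capitals as above).
Lck distal: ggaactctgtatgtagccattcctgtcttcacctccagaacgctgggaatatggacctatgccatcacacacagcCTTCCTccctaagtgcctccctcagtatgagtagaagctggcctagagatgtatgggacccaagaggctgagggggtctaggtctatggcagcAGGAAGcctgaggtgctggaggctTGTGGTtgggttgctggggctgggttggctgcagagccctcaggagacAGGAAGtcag
Lck proximal: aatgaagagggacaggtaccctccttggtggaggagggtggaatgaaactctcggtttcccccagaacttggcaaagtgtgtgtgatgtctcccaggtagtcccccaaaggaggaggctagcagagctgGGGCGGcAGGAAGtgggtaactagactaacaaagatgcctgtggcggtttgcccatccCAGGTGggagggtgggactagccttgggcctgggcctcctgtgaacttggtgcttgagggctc
The distal window held the ETS motif AGGAAG at 3 places and the RUNX motif once (14.0% of windows held the latter), and the proximal window held that ETS motif, the SP and KLF motif and the E-box CAGGTG once each. The distal peak, 10072 bp at chr4:129565661-129575732, had 187 and 207 CPM in Ctrl and 231 and 271 CPM in KO. Both KO libraries were above both Ctrl libraries (log2 fold change 0.35 ± 0.25, unadjusted p = 0.168). The proximal peak, 5897 bp at chr4:129554829-129560725, had 69.7 and 93.4 CPM in Ctrl and 81.2 and 131 CPM in KO, with overlap (0.38 ± 0.28).

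The distal peak held more counts than the proximal peak in 4 of 4 libraries. The ratio was 2.69 and 2.21 in Ctrl and 2.84 and 2.07 in KO (exact sign-flip test on the log2 ratios, two-sided p = 0.125, the smallest possible). It did not separate the genotypes (exact permutation test, two-sided p = 1). Per kb of peak the ratio was lower, 1.57 and 1.30 in Ctrl and 1.66 and 1.21 in KO. The Lck locus as a whole had 363 and 448 CPM in Ctrl and 436 and 551 CPM in KO (log2 fold change 0.28 ± 0.22, and from 0.0696 without KO replicate 2 to 0.45 without Ctrl replicate 2). Of its 19 peaks, 11 lay nearer to the TSS of Hdac1 or Fam167b.

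One of these, a 628 bp peak at chr4:129580175-129580802, was the only member peak with an unadjusted p under 0.05. It lay 6534 bp upstream of the distal Lck TSS, nearer to Fam167b, and held 16 and 22 counts in Ctrl libraries and 54 and 56 in KO libraries, or 7.24 and 6.55 against 20.1 and 13.4 CPM. The KO libraries were both higher (log2 fold change 1.27 ± 0.50, unadjusted p = 0.0112, adjusted p = 0.998 by edgeR), and the difference did not pass the adjusted threshold.

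Zap70, whose product binds the phosphorylated CD3 chains, had a promoter peak of 10036 bp, chr1:36760069-36770104, that held most of its locus. The peak had 162 and 223 CPM in Ctrl and 231 and 300 CPM in KO. Both KO libraries stood above both Ctrl libraries (log2 fold change 0.46 ± 0.25, unadjusted p = 0.0657). The locus had 219 and 291 CPM in Ctrl and 289.5 and 375 in KO, where the groups just overlapped, and its log2 fold change of 0.38 ± 0.24 had the smallest unadjusted p of the 10 loci, 0.148. It was 0.15 without KO replicate 2, 0.18 without Ctrl replicate 1 and 0.61 without Ctrl replicate 2.

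Cd5 had the widest peak of the members, 20226 bp at chr19:10729490-10749715, and only 15 of the 124158 peaks were as wide or wider. Peaks of 10 kb or more numbered 206 in all, and 4 belonged to members (Cd5, Cd247, Lck and Zap70). The Cd5 peak lay on both sides of the TSS, reached 9512 bp downstream of it and had 311 and 497 CPM in Ctrl and 414 and 650 CPM in KO. The deeper library was the higher in each group, and the groups overlapped (log2 fold change 0.40 ± 0.23, unadjusted p = 0.0890). At their full width, peaks came to 79.2% of the length of the Cd5 locus, and the widest reached slightly past its upstream flank. The locus had 410 and 642.5 CPM in Ctrl and 531 and 821 in KO (0.36 ± 0.28).

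KO was then compared with Ctrl over all members. None of the 10 loci passed an adjusted p of 0.05 in edgeR or DESeq2 with genotype as the only term, among 15047 loci of which 0% passed, and the adjusted p of each member was 0.9996 by edgeR. At an unadjusted p under 0.05, 0 members were higher and 0 lower in KO, where 0.419% and 2.13% of all loci were. Log2 fold changes were above 0 at 9 of 10 loci, against 49.2% of all loci, with a median of 0.27 against -0.01. All 5 Treg marker loci were above 0 as well, with a median of 0.40. With a loess offset on abundance, Lck was 0.11, Cd5 0.15, Zap70 0.25 and Cd247 -0.08. Cd3d (0.27), Cd3e (0.23) and Cd8b1 (0.49) rose with that offset. The part of abundance in the member values was not tested. The groups did not overlap at 2 loci, Cd3e and Cd247, both higher in KO, where 12.8% of all loci were higher and 16.4% lower without overlap.

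**Figure D3:**
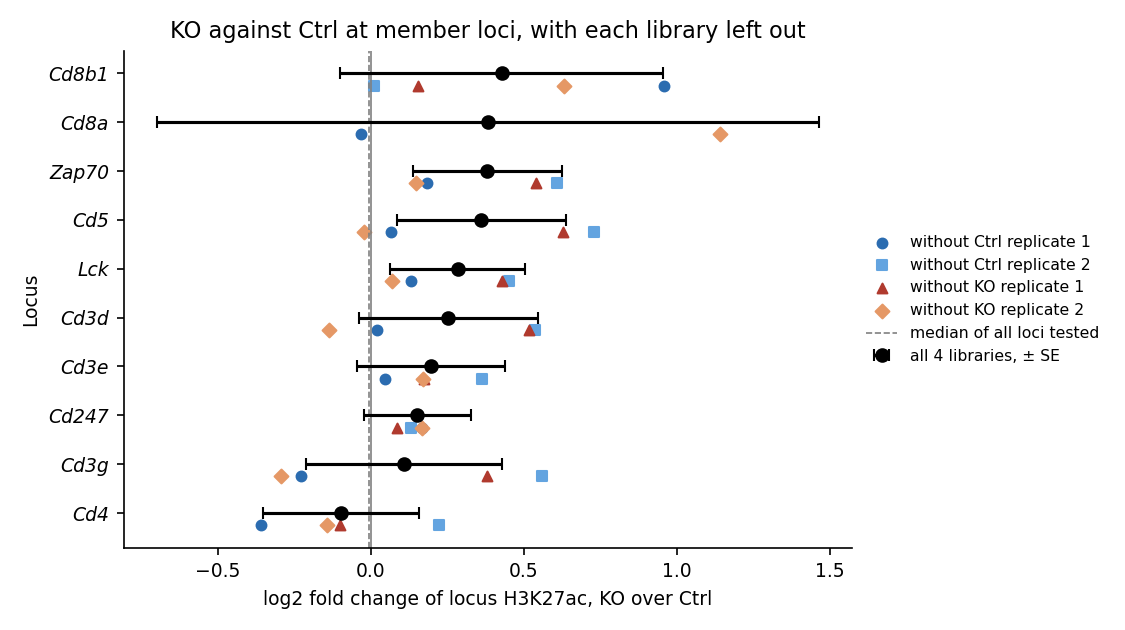
Log2 fold change of locus H3K27ac, KO over Ctrl, for the 10 loci (black points with SE bars) and again with each library left out (coloured symbols, missing for Cd8a where too few counts remained). For Cd5, Cd3d, Cd3g and Cd4 the value without KO replicate 2 lies below 0.

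Among the 78 tested member peaks, 0 passed an adjusted p of 0.05 by edgeR, where 0.00134% of all peaks (1 of 74550) did, and 0 passed by DESeq2, which called 0 peaks in all. At an unadjusted p under 0.05, 1 was higher in KO, 1.28% against 1.45% of all peaks, and 0 were lower, against 2.79%. Both KO libraries were above both Ctrl libraries at 19 peaks (24.4%, against 16.9% of all peaks) and below both at 10 (12.8%, against 16.4%). Fold changes were above 0 for 53 of 78 member peaks, or 67.9%, against 49.2% of all peaks. The median log2 fold change was 0.25 for member peaks and -0.01 for all tested peaks. The median of member peaks was 0.0895 without Ctrl replicate 1, 0.102 without KO replicate 2, 0.134 with a loess offset on abundance and 0.138 with a minimum of 50 counts. Tested member peaks had a median of 9.50 CPM, against 5.77 for all tested peaks. At 6 of 10 loci both deeper libraries, numbered 2, were above both libraries numbered 1, which was so at 28.5% of all loci, and the part of depth in these values was not tested.

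**Figure D4:**
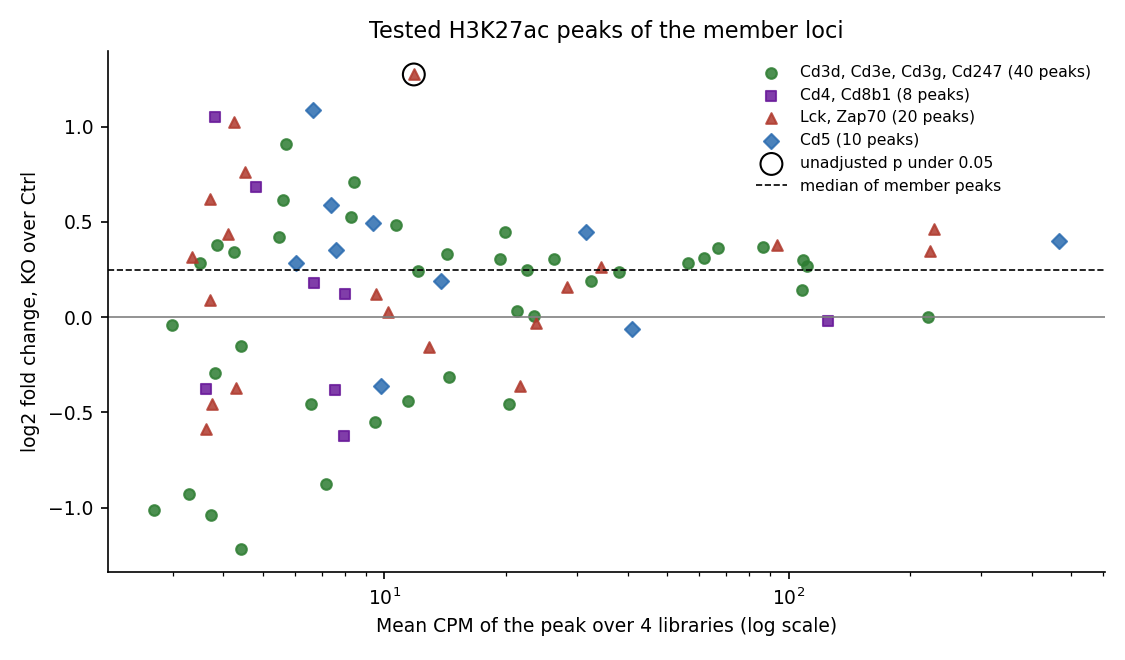
Log2 fold change of the 78 tested member peaks, KO over Ctrl, against mean CPM on a log axis, coloured by gene group, with a dashed line at their median (0.246). The peaks spread from -1.21 to 1.27, and the circled point, the highest, is the peak upstream of Lck with an unadjusted p of 0.0112.

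Other genes of the pathway were taken from a list of 37 that act at or just below the TCR. All 37 had a promoter peak, and their median density was 5.96 CPM per kb of locus, within the span of the CD3 chains, Lck and Zap70. At an unadjusted p under 0.05, 0 of the 37 were higher and 0 lower in KO by edgeR, against 0.419% and 2.13% of all loci. Log2 fold changes ran from -0.28 to 0.49, and 29 of 37 were above 0, against 49.2% of all loci, with a median of 0.22 against -0.01.

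Of 15 transcription factors known for the choice between Cd4 and Cd8, all had a promoter peak, and 0 were higher and 0 lower in KO at an unadjusted p under 0.05 (0.419% and 2.13% of all loci). Their median log2 fold change was 0.15 against -0.01 for all loci, and 12 of 15 were above 0, against 49.2%. Zbtb7b, the CD4 lineage factor, had 8.20 CPM per kb of locus, above 98.4% of genes, with 196 and 315 CPM in Ctrl and 248 and 458 CPM in KO. Runx3, which represses Cd4 in CD8 cells, had 2.85 CPM per kb, above 86.1% of genes, with 179 and 238 CPM in Ctrl and 194 and 270 CPM in KO. At both loci the deeper library was the higher in each group and the groups overlapped (log2 fold changes 0.47 ± 0.33 and 0.15 ± 0.26).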

How the data were processed

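H3K27ac CUT&Tag reads were, as the study's methods and submitters' notes give it, checked with FastQC, aligned to mm10 with Bowtie2 and deduplicated, and peaks were called with MACS2 against IgG and merged with bedtools. The values the authors deposited are raw read counts per merged peak. Tool versions are not given in the sources used here.

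Peaks were placed on protein-coding genes of GENCODE M21 (GRCm38, the assembly of mm10), with 1-based coordinates. Counts were summed per locus, and a peak in reach of several non-member genes entered each of their loci. KO and Ctrl were compared with the quasi-likelihood test of edgeR 4.0.16 (R 4.3.3) on all peaks and all loci that reached 10 counts in 2 or more libraries, with TMM factors of the peak table, no covariate and Benjamini-Hochberg adjustment over all features tested. The fit left 2 residual degrees of freedom. The prior degrees of freedom were infinite for peaks, so their spread came from all peaks. They were 7.60 for loci, so the spread of a locus mixed its own with that of all loci. CPM values are counts divided by the TMM-scaled library total, times 1e+06. Levels between genes were compared per kb of the extended locus. An SE is the size of the log2 fold change divided by the square root of F. Exact sign-flip and permutation tests over libraries served single ratios. The code was tested on simulated counts. Promoter sequences came from RefSeq for 8 of the 10 members, without Cd4 and Cd8b1.

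The members and gene lists were chosen with earlier results of these data known. All members were named, with the peak of highest mean CPM of each locus, the peak nearest its TSS and each peak with an unadjusted p under 0.05. Of the lists, only genes under that p would be named, besides Zbtb7b and Runx3. Alternatives were DESeq2 1.42.0, its size factors, library totals with no factor, an abundance-dependent loess offset, higher and lower count minimums, the replicate number as a block, each library left out, other flanks and lengths, and peaks counted for the nearest TSS only.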

Additional observations from a re-analysis of the deposited data

How the results depend on the processing

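Of 136 values of member loci under alternatives, 124 kept their direction and their side of the adjusted threshold, 9 changed sign and 3 came past the threshold. The 9 were Cd247 with a loess offset on abundance (-0.0832), Cd3g with a minimum of 50 counts (-0.0197), Cd4 with a flank of 20 kb (0.0537), and 6 with a library left out. With 1 library left out, Cd3d ran from -0.135 (without KO replicate 2) to 0.537, Cd3g from -0.292 (without KO replicate 2, and -0.229 without Ctrl replicate 1) to 0.558, Cd4 from -0.359 to 0.222 (without Ctrl replicate 2), Cd8a from -0.0328 (without Ctrl replicate 1) to 1.14 and Cd5 from -0.0238 (without KO replicate 2) to 0.730. Cd3e ran from 0.0470 to 0.364, Cd8b1 from 0.0104 to 0.957 and Cd247 from 0.0868 to 0.169. The cause was not tested. The minimum of 50 counts moved the median of all loci to -0.12, and against that shift Cd3g stood higher.

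With the library left out, the median log2 fold change of member peaks ran from 0.0895 to 0.262. The mean log2 difference of Cd4 minus Cd8 density over the libraries kept ran from 3.43 to 3.91. The fits with a library left out had 1 library in a group, so no counts at an unadjusted p are given for them. A minimum of 50 counts with all libraries left 0 member peaks higher in KO at an unadjusted p under 0.05. The coreceptor regulators had 1 locus under that p with total counts as library size, a minimum of 50 counts or no flank. The signalling list had 1 with no flank. The share of all loci under that p in these settings is not given.

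The replicate number was fitted as a block (replicate block). The study's methods call the mice of both genotypes littermates, but no source ties a replicate number to a litter or day. It called 3 member loci (Zap70, adjusted p = 0.0037, Cd5, 0.00027, and Lck, 0.0176, all higher in KO). In either direction 8.34% of all loci were called, and 639 of these 1255 loci were higher in KO. The block also called 2 member peaks (2.56% of those tested, against 0.283% of all peaks). At an unadjusted p under 0.05 it gave 8 member peaks higher (10.3%, against 4.68% of all peaks), and 21 loci of the signalling list (56.8%) and 7 of the coreceptor regulators (46.7%), against 20.8% of all loci. This fit left 1 residual degree of freedom. Deviations of same-numbered libraries correlated at 0.253 over the 74550 tested peaks, and 2 pairs cannot show pairing. At this depth, small peaks such as those of Cd8a could not be tested.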
